A study of Homo sapiens with 12 samples.

Results

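The comparison set 3 Combination libraries against 3 JQ1 libraries of MDA-MB-231 cells, and so read out what the agent labelled CAR added to cells that also received JQ1. The libraries were chosen by their treatment labels alone, 6 of the 12 in the series, and all 12645 genes that passed an expression filter, of 16384 listed, were tested. MDA-MB-231, a long-established line, derives from triple-negative breast tumour cells, and its genotype was labelled WT in every library. Cells labelled JQ1 were given that agent at 25 µmol/L, and cells labelled Combination were given 10 µmol/L of CAR together with JQ1 at 25 µmol/L. The vehicle group (DMSO) and the group with CAR alone at 10 µmol/L, 3 libraries each, gave the same step without JQ1. The series title names the agents as cardamonin and JQ-1 and gives invasion and metastasis as its subject. The length of treatment is not given in the labels.

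JQ1 occupies the acetyl-lysine pockets of BET proteins such as BRD2 and BRD3 and lowers transcription that depends on them. Cardamonin is a plant chalcone with an electrophilic enone group, and compounds of this kind can react with cysteines of KEAP1, the adaptor that marks the transcription factor NRF2 (gene NFE2L2) for destruction. NRF2 that escapes KEAP1 pairs with a small MAF protein on antioxidant response elements and drives genes for glutathione, thioredoxin, NADPH, haem breakdown and iron storage. With Combination, NRF2 targets such as GCLM, SRXN1, HMOX1 and SLC7A11 and genes of glycolysis such as LDHA stood above JQ1. CYP1A1 and CYP1B1, targets of the aryl hydrocarbon receptor, and genes such as MARCKS, VIM and DKK1 stood below.

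Total counts ran from 17449715 to 19754456 per library. Levels are given as CPM, the reads of a gene per 1000000 reads of the TMM-scaled library total, in the order of replicates 1 to 3. Changes are log2 fold changes, and p-values are adjusted over all 12645 genes by Benjamini-Hochberg (edgeR quasi-likelihood test). The standard error (SE) was worked back from that test, as the absolute log2 fold change over the square root of the F statistic. It is not a fitted standard error. A gene was called higher or lower at an adjusted p under 0.05. Nothing in the labels says that replicates came from separate cultures. These p-values therefore measure the spread between the 3 samples within each group, pooled over all 12 libraries, and that spread may be technical. The 8 markers of MDA-MB-231 and basal breast cells were all detected, and their summed level was 3863 to 3891 CPM with JQ1 and 2979 to 3156 CPM with Combination. The members did not move as 1: 5 were called lower and 1, FOSL1, higher. In bulk RNA, fewer cells of a kind and less RNA per cell cannot be told apart. Summed levels in the 12 libraries were at most 1.004 CPM for leukocyte markers, 0.1657 CPM for erythroid markers, 8.848 CPM for fibroblast markers and 8.532 CPM for endothelial markers. Counts of the receptor genes ESR1 and PGR were at most 2 in each of the 6 libraries. The receptor gene ERBB2 stood at 147.4 to 153.8 CPM with JQ1 and 143 to 144.7 CPM with Combination. ERBB2 made up most of the summed level of breast luminal and receptor markers, 148.1 to 159.9 CPM in these libraries.

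The library Combination 1 stood apart from the others. The summed level of 20 liver markers was 218.1 CPM in it and 15.92 to 21.4 CPM in the other 11 libraries. ALB, the plasma albumin gene, had 1429 reads in Combination 1 and 5 and 8 in Combination 2 and Combination 3. In all, 54 listed genes were at least 4 times higher in Combination 1 than in both other Combination libraries with at least 20 reads, against 3 for Combination 2 and 1 for Combination 3. Of those 54 genes 6 could be tested and 1 was called, SERPINA1 (named here after its values were seen), at 9.74 CPM in Combination 1 and 1.74 and 1.76 CPM in the others. Without Combination 1 its log2 fold change went from 2.08 to 0.75 and it was still called higher. Its call was lost without DMSO 3 or any 1 of the JQ1 libraries (edgeR adjusted p of 0.059 to 0.104). Counts were also taken without Combination 1: 2893 of 3292 higher calls (87.9%) and 2863 of 3275 lower calls (87.4%) were called the same way, and 0 were called in the opposite direction.

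**Figure D1:**
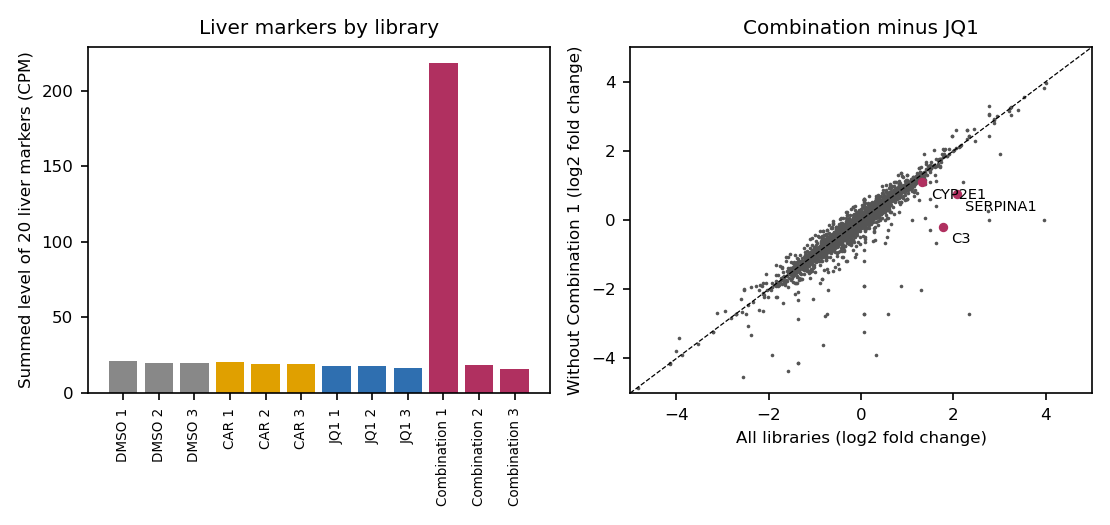
Left, the summed level of 20 liver markers (CPM, linear axis) in each of the 12 libraries; Combination 1 reached 218.1 CPM and no other library passed 21.4 CPM. Right, the log2 fold change of each gene in Combination minus JQ1 with all libraries (x axis) and without Combination 1 (y axis), with the line of equality; 1 gene lies outside the axes, and the marked genes SERPINA1, CYP2E1 and C3 lie below the line, with y values of 0.75, 1.09 and -0.20.

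Adding CAR to JQ1 moved many genes by a small amount and few by a large one. With Combination 3292 genes (26% of those tested) were higher and 3275 (25.9%) lower than with JQ1, and the median absolute log2 fold change over all genes was 0.2163. At least 2-fold changes were called for 163 genes in the higher direction (1.29%) and 308 in the lower (2.44%). Among called genes 50.1% were higher. Scaling by total counts instead of TMM gave 2229 higher and 4550 lower genes, or 32.9% higher, so the balance of higher and lower calls depends on the scaling, which moved the median log2 fold change of all genes from -0.0025 to -0.09. The ferritin light chain alone took 3.71% to 3.92% of all reads with Combination and 1.83% to 1.95% with JQ1.

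Glutathione genes held some of the clearest changes. Glutathione is made from cysteine, which enters the cell as cystine, and glutamate-cysteine ligase is the enzyme that sets its rate of synthesis. GCLM, the modifier subunit of that ligase, stood at 119, 119.8 and 117 CPM with JQ1 and 1129.6, 1139 and 1079 CPM with Combination (log2 fold change 3.23, SE 0.039, adjusted p = 1.2e-23). All 3 Combination libraries were also above the CAR libraries at 392, 382 and 407 CPM. SLC7A11, the cystine importer, stood at 43.95, 36.7 and 31.2 CPM with JQ1 and 172, 173 and 160.2 CPM with Combination (log2 fold change 2.17, SE 0.13, adjusted p = 2.5e-07). All 3 Combination values lay below those with CAR alone, 579, 574 and 594 CPM, and the DMSO values were 97.3, 106 and 78.4 CPM. SLC3A2, the heavy chain that carries SLC7A11 to the membrane, went from 512, 522 and 516 to 987, 986 and 954 CPM (log2 fold change 0.92).

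Further along the same pathway, GSR, which reduces oxidised glutathione, stood at 258, 259 and 259 CPM with JQ1 and 778, 797 and 758 CPM with Combination (log2 fold change 1.59, SE 0.034, adjusted p = 1.8e-19). GCLC, the catalytic subunit of the ligase, rose by 0.97 on the log2 scale (SE 0.039) and MGST1, a membrane glutathione transferase, by 1.20 (SE 0.043). Of 15 tested genes in the glutathione list 9 were higher and 4 lower, with a median log2 fold change of 0.92 beside -0.0025 over all genes tested. For this and every list below, the shares over all genes tested were 26% higher and 25.9% lower. OPLAH, which recycles 5-oxoproline to glutamate, fell from 14.1, 15.03 and 14.8 to 9.09, 7.96 and 8.66 CPM, and GGT1, which breaks glutathione down outside the cell, from 4.96, 5.58 and 4.19 to 3.01, 2.96 and 3.396 CPM.

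Thioredoxin is the second reducing system of the cell, and its genes moved unevenly. SRXN1, the sulfiredoxin that repairs overoxidised peroxiredoxins, stood at 950.1, 933 and 949 CPM with JQ1 and 7034, 7057 and 6876 CPM with Combination (log2 fold change 2.89, SE 0.038, adjusted p = 3.5e-23). After FTL and FTH1 this was the largest gain in CPM among called genes, and SRXN1 was at 169, 169 and 183 CPM with DMSO. TXN, thioredoxin itself, went from 262, 253 and 256 to 753, 742 and 719.5 CPM (log2 fold change 1.52). Its reductase TXNRD1 went from 4338, 4332 and 4135 to 7138, 7109 and 6946 CPM (log2 fold change 0.73), and the peroxidase PRDX1 from 952, 925 and 950.1 to 1780.4, 1759 and 1751 CPM (log2 fold change 0.90). TXNIP, which binds and inhibits thioredoxin, fell from 1034, 1038 and 1006 to 666, 698 and 677 CPM (log2 fold change -0.59, SE 0.038, adjusted p = 4.0e-11). Of 13 tested members 7 were higher and 2 lower, with a median of 0.15. The count of lower members was 1 without any single one of JQ1 1, JQ1 2, JQ1 3, Combination 1 or Combination 3, and TXNIP was still called lower in each of these fits.

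Iron storage and haem turnover rose at several steps. FTL and FTH1 encode the light and heavy chains of ferritin, the shell that holds iron in the cell. FTL stood at 18523, 18840.0 and 19839 CPM with JQ1 and 40284, 42583 and 39807 CPM with Combination (log2 fold change 1.10, SE 0.055, adjusted p = 2.2e-11), and FTH1 at 4652, 4733 and 4869.6 CPM with JQ1 and 12345, 13076 and 11724 CPM with Combination (log2 fold change 1.38, SE 0.052, adjusted p = 1.2e-13). HMOX1, which opens the haem ring and frees its iron, stood at 8.53, 8.56 and 7.69 CPM with JQ1 and 58.04, 63.2 and 60.9 CPM with Combination (log2 fold change 2.88, SE 0.064, adjusted p = 3.9e-19). The Combination level of HMOX1 lay below the CAR level of 130.2, 135 and 128 CPM, and its DMSO level was 18.3, 17.5 and 17.6 CPM. ABCB6, a porphyrin transporter, rose from 60.97, 59.4 and 67.9 to 157, 158 and 151 CPM, and ALAS1, the first enzyme of haem synthesis, from 87.2, 90.1 and 93.8 to 176, 173 and 166 CPM. SLC40A1, the iron exporter ferroportin, fell from 47.7, 48.2 and 47.6 to 29.9, 28.3 and 29.6 CPM (log2 fold change -0.71, SE 0.054, adjusted p = 6.2e-10). Of 19 tested members 10 were higher and 5 lower, with a median of 0.13, and without Combination 1 the lower members were 3.

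Partners of NRF2 rose while its own RNA was not called. NFE2L2, which encodes NRF2, was not called, at 232, 235 and 234 CPM with JQ1 and 241, 236 and 235 CPM with Combination (adjusted p = 0.59), and its log2 value of 0.023 changed sign to -0.065 under total count scaling. RNA levels give no reading of the stability of the protein. KEAP1 rose from 63.6, 62.98 and 62.5 to 149, 149.97 and 148 CPM (log2 fold change 1.24, SE 0.038, adjusted p = 1.4e-16). SQSTM1, the p62 adaptor that can hold KEAP1 in aggregates, rose from 728, 761 and 748 to 3259, 3346 and 3199.9 CPM (log2 fold change 2.13, SE 0.04, adjusted p = 2.0e-20). The small MAF genes MAFG and MAFK rose by 1.18 and 0.63, and BACH1, a repressor that competes for the same DNA elements, by 0.58. In the list of 9 NRF2 regulators 7 were higher and 0 lower.

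**Figure D2:**
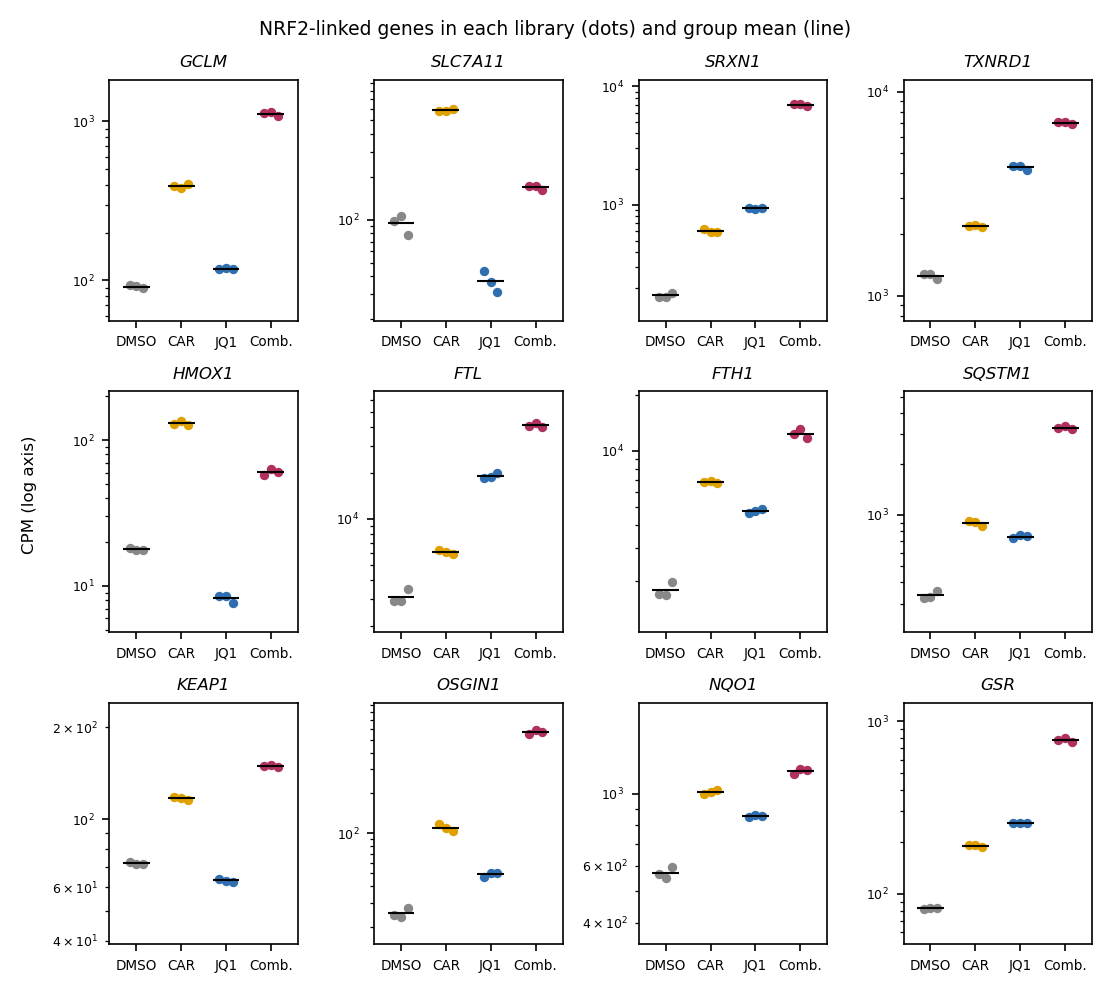
Levels of 12 NRF2-linked genes in each library (dots, CPM on a log axis that differs between panels) with the group mean (line), for DMSO, CAR, JQ1 and Combination with 3 libraries each. In every panel the 3 Combination dots lie above the 3 JQ1 dots, while SLC7A11 and HMOX1 are highest with CAR alone.

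The core of the antioxidant response element, TGACNNNGC on either strand, was looked up in promoter windows from 250 bases before to 50 bases after the start site (RefSeq, GRCh38.p14). It was present in 13.6% of 27305 promoters in the table, in 15% of 10253 promoters of tested genes, in 21.6% of the 116 promoters of genes called at least 2-fold higher, and in 12.7% of the 236 promoters of genes called at least 2-fold lower. In the 8 lists around NRF2 (regulators, glutathione, thioredoxin, reductases, iron, NADPH, drug conjugation and other targets), 21 members were called at least 2-fold higher, 15 of them had a promoter in the table, and 4 of those held the core in the window, 3 of them before the start. Those 3 are shown, with TNFSF9 and TXNRD1 from the genes named below and above, because they let the matched letters be read beside the change in RNA. The sequences follow the strand of the gene, and the capitals mark the core, which lies on the opposite strand in GCLM and TNFSF9:
GCLM (chr1:93909446-93909474, minus strand): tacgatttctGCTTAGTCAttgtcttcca
GSTP1 (chr11:67583736-67583764, plus strand): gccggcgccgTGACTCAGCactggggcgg
ABCB6 (chr2:219219092-219219120, minus strand): cctgggcacgTGACCAAGCcggctctgct
TNFSF9 (chr19:6530874-6530902, plus strand): agaaaattccGCAGAGTCAcggggacgag
TXNRD1 (chr12:104215670-104215698, plus strand): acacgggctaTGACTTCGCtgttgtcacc
The cores begin 34 bases before the start in GCLM, 66 in GSTP1, 152 in ABCB6, 142 in TNFSF9 and 99 in TXNRD1. A match describes letters in a window and shows no binding. Shares of other cores also differed between promoters of all tested genes and those of genes called at least 2-fold higher or lower. In that order, the ATF4/CEBP core TGATGNAA was in 1.68%, 3.45% (4 promoters) and 2.12%. The heat shock core GAANNTTC was in 4.61%, 7.76% and 5.93%, and the E-box CACGTG in 10.1%, 11.2% and 3.81%. None of these shares was tested. GSTP1, a glutathione transferase, was chosen after its values were seen and went from 446, 439.9 and 462 to 947, 942 and 938 CPM (log2 fold change 1.07).

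Reductases, NADPH genes and export pumps held both higher and lower members. NQO1, the quinone reductase often used to read NRF2 activity, stood at 849, 862 and 856 CPM with JQ1 and 1157, 1195 and 1188 CPM with Combination (log2 fold change 0.46, SE 0.035, adjusted p = 4.4e-10). PTGR1, which reduces enones and prostaglandins, rose from 87.96, 88.1 and 85.5 to 185, 182 and 183 CPM (log2 fold change 1.07). AKR1B10 was under the floor of 3 reads in the JQ1 libraries, 0.107, 0.0552 and 0.0582 CPM. Of the Combination libraries, at 0.177, 0.0581 and 0.585 CPM, only Combination 3 was above it. It was not called, its fitted log2 value of 1.79 was 0.62 without Combination 3, and it stood at 10.5, 12.3 and 11.4 CPM with CAR alone. It was called higher without DMSO 3 (adjusted p = 0.026) and without Combination 2 (adjusted p = 0.013). AKR1C3 fell from 19.8, 20.1 and 20.9 to 15.1, 15.7 and 16.7 CPM, a change that can hold reads shared with its close copies. In the reductase list 8 of 14 members were higher and 2 lower. Of the NADPH genes 6 of 12 were higher and 2 lower (1 without any one of JQ1 1, JQ1 2, Combination 1 or Combination 3). The higher ones were led by PGD of the pentose phosphate pathway, from 335, 314 and 339 to 598, 596 and 575 CPM, with TALDO1, TKT and ME1 at log2 fold changes of 0.79, 0.61 and 0.66. The pumps moved in both directions: ABCC1 rose from 143, 138 and 139 to 257, 263 and 258 CPM and ABCC3 from 44.6, 49.5 and 50.9 to 87.1, 85.1 and 85.9 CPM, while ABCG2 fell from 20.2, 17.3 and 16.5 to 8.56, 9.94 and 9.37 CPM.

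The largest change among the genes named belonged to NECAB2, a calcium-binding protein gene known from neurons. It stood at 9.76, 11.9 and 11.4 CPM with JQ1 and 180.4, 172 and 174 CPM with Combination (log2 fold change 3.99, SE 0.074, adjusted p = 1.4e-20). With DMSO it was at 1.23, 1.17 and 1.86 CPM and with CAR alone at 1.93, 1.08 and 1.301 CPM, and the step without JQ1 was not called (log2 fold change 0.016, SE 0.24). OSGIN1, an oxidative stress response gene and NRF2 target, stood at 47.3, 50.7 and 50.3 CPM with JQ1 and 550.1, 587 and 569 CPM with Combination (log2 fold change 3.53, SE 0.052, adjusted p = 2.6e-22). OSGIN1 ends 2299 bases before NECAB2 begins on the plus strand of chromosome 16 (GENCODE v29, OSGIN1 at 83948282 to 83966332, NECAB2 at 83968632 to 84002776). Both rose with Combination, but with CAR alone OSGIN1 went from 24.5, 23.8 and 27.4 to 118, 108 and 105 CPM while NECAB2 was not called. Whether reads that run past the end of OSGIN1 were counted as NECAB2 was not tested.

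The other genes with large gains came from several families. F2RL2, a protease-activated receptor of the thrombin group, rose from 1.07, 0.994 and 0.699 to 6.495, 6.801 and 8.25 CPM (log2 fold change 2.95). GLA, the lysosomal alpha-galactosidase, rose from 32.4, 28.1 and 29.7 to 132, 135 and 129 CPM (log2 fold change 2.13). TNFSF9, a ligand that costimulates T cells, rose from 2.51, 1.93 and 2.56 to 9.98, 9.88 and 10.4 CPM (log2 fold change 2.11). Genes with the largest changes were named only where the groups did not overlap, so their separation is fixed by that rule. PANX2, a pannexin channel, rose by 2.06, and the low-level genes JAKMIP3 and CHD5, a chromatin remodeller, by 3.24 (SE 0.27) and 2.01 (SE 0.19). TRIM16 and TRIM16L rose by 1.74 and 1.90, but the pair is near-identical in sequence and the counting may have split their reads.

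The largest losses included targets of the aryl hydrocarbon receptor. AHR is a ligand-activated transcription factor that turns on the cytochromes CYP1A1 and CYP1B1, which oxidise polycyclic aromatic compounds. CYP1B1 stood at 178, 166 and 171 CPM with JQ1 and 15.8, 14.01 and 14.6 CPM with Combination (log2 fold change -3.53, SE 0.064, adjusted p = 1.3e-20), the lowest log2 value among the genes named. With DMSO it was at 29.8, 30.1 and 27.1 CPM and with CAR alone at 11.3, 11.1 and 13.5 CPM, and all 3 Combination values lay below those with DMSO. CYP1A1 showed the same order, with 22.5, 20.3 and 23.2 CPM with JQ1 and 4.07, 3.84 and 4.16 CPM with Combination (log2 fold change -2.45, SE 0.11, adjusted p = 4.9e-14), 5.13, 5.53 and 6.26 CPM with DMSO and 2.87, 2.21 and 2.03 CPM with CAR. TIPARP, a receptor target that represses AHR, fell from 209, 212 and 208 to 123, 119 and 123 CPM (log2 fold change -0.78, SE 0.037, adjusted p = 2.0e-13) and stayed above its DMSO level of 46.999, 45.3 and 46.1 CPM. AHR itself fell from 217, 217 and 209.7 to 158, 165 and 158 CPM, and its partner ARNT, named after its values were seen, from 113, 116 and 108 to 100.5, 91.3 and 92.7 CPM. The feedback repressor AHRR went the other way, from 5.12, 4.81 and 5.42 to 10.5, 9.13 and 9.48 CPM (log2 fold change 0.92, SE 0.15, adjusted p = 2.1e-05). Of 8 tested members of the list 6 were lower and 1 higher, with a median of -0.58. The core TNGCGTG of the receptor's response element, a search added after the values were seen, was not in the CYP1A1 window, and CYP1B1 had no promoter to read. It was present in 7.2% of promoters of tested genes. Among genes called at least 2-fold, it was in 5.51% of promoters of lower and 1.72% of higher ones. Sequence further upstream than the window was not searched, so its absence there says nothing about elements outside it.

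Among the other strong losses were genes of membrane, stress and death pathways. MARCKS, an actin-binding substrate of protein kinase C, stood at 38.4, 37.3 and 41.1 CPM with JQ1 and 7.91, 6.86 and 8.196 CPM with Combination (log2 fold change -2.34, SE 0.078, adjusted p = 5.4e-16), and with DMSO at 118, 115 and 129 CPM. BMF, a BH3-only promoter of apoptosis, fell from 30.2, 34.2 and 28.2 to 8.503, 7.499 and 7.79 CPM (log2 fold change -1.96). SORL1, a sorting receptor of the endosome, fell from 135, 137 and 130.3 to 36.6, 37.3 and 40.7 CPM (log2 fold change -1.81). These genes too were named under the rule that the groups do not overlap. MAP2K6, a kinase that activates p38, fell from 9.33, 10.7 and 10.1 to 3.13, 3.197 and 2.81 CPM, and DUSP9, a phosphatase of MAP kinases, from 4.96, 4.47 and 5.65 to 1.12, 1.34 and 0.995 CPM. VIPR1, a receptor for vasoactive intestinal peptide, fell from 16.1, 19.4 and 17.1 to 4.84, 5.23 and 5.68 CPM. NAALAD2, THSD1, FBLN7, FRMD3, NEK3 and KRT81 made up the rest of the 14 lowest, with log2 fold changes of -2.83, -2.04, -1.86, -1.84, -1.83 and -1.78.

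Most glycolysis and hypoxia genes rose. Of 35 tested members 29 were higher and 3 lower, with a median of 0.6. LDHA, which turns pyruvate into lactate, stood at 2187, 2193 and 2176 CPM with JQ1 and 4085, 4232 and 4133 CPM with Combination (log2 fold change 0.93, SE 0.032, adjusted p = 1.0e-15). GAPDH stood at 4119, 4227 and 4355 CPM with JQ1 and 7621, 8257 and 7774 CPM with Combination (log2 fold change 0.90, SE 0.037, adjusted p = 2.7e-14), although this glycolytic enzyme is widely used as a reference gene. BNIP3, a mitophagy receptor induced in hypoxia, rose from 235, 235 and 229.8 to 554, 581 and 552 CPM (log2 fold change 1.27, SE 0.038, adjusted p = 1.3e-16). P4HA1, a collagen prolyl hydroxylase, rose by 1.08 and PGK1, a glycolytic kinase, by 0.73. The 3 lower members encode subunits of the hypoxia-inducible transcription factors: EPAS1, which encodes HIF-2 alpha, fell from 298, 296 and 289.5 to 174, 177 and 175 CPM, HIF1A from 612, 605 and 590.1 to 496, 473 and 473 CPM, and ARNT as given above. In CAR minus DMSO the same list had 20 members higher (27.3% of all genes were) and 6 lower (30.1% of all genes), with a median of 0.17. The difference between the steps was called positive for 24 of the 35 and negative for 3, beside 20.1% and 18.2% of all genes tested.

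**Figure D3:**
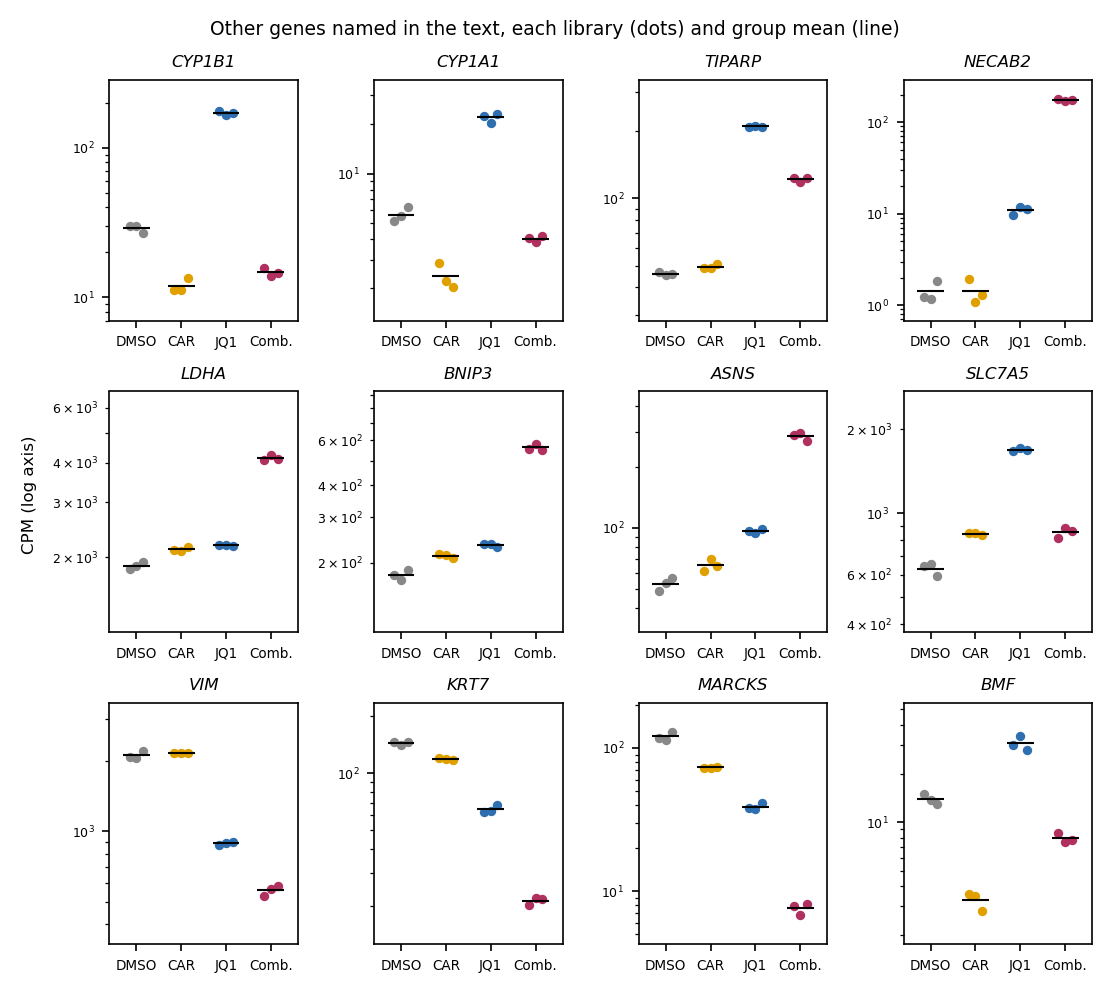
Levels of 12 further genes in each library (dots, CPM on a log axis that differs between panels) with the group mean (line). LDHA, BNIP3, ASNS and NECAB2 are highest with Combination, CYP1B1, CYP1A1, TIPARP, SLC7A5 and BMF are highest with JQ1, and VIM, KRT7 and MARCKS are lowest with Combination.

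Genes of the ATF4 programme and of amino acid supply split. ATF4 is the transcription factor translated under amino acid shortage and stress of the endoplasmic reticulum. ASNS, asparagine synthetase, rose from 96.4, 94.6 and 99.2 to 289, 296 and 270.1 CPM (log2 fold change 1.56, SE 0.053, adjusted p = 7.9e-16). SLC7A5, the importer of large neutral amino acids and usually listed as an ATF4 target, fell from 1677, 1709.6 and 1684 to 817, 884 and 861 CPM (log2 fold change -0.98, SE 0.039, adjusted p = 8.6e-15). ATF4 rose by 0.27, DDIT3 (CHOP) by 0.57 and PPP1R15A, a phosphatase subunit that restores translation, by 0.86. Over the list 13 of 26 members were higher and 4 lower, with a median of 0.18. Of 21 amino acid transporters and tRNA ligases 14 were higher and 2 lower. SLC1A5 and SLC38A1, importers of glutamine, rose by 0.4996 and 0.72, and SLC1A4 fell from 14.99, 14.9 and 17.5 to 10.9, 10.5 and 11.4 CPM.

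Most proteasome and lysosome genes rose, the proteasome genes by small amounts. Of 32 proteasome subunits 27 were higher and 0 lower, with a median of 0.22, and the count of higher members was 16 under total count scaling. PSMC5 rose from 141, 142 and 142 to 211, 205 and 208 CPM and PSMC4 from 99.7, 100.3 and 104 to 137, 143 and 140.1 CPM, with log2 fold changes of 0.56 and 0.47. In CAR minus DMSO all 32 were higher, where 27.3% of all genes were. The difference between the steps was called for 6 of them, 2 positive and 4 negative. Of all genes tested 20.1% were called positive and 18.2% negative. Autophagy and lysosome genes had 15 of 25 members higher and 1 lower, MITF, whose call was lost without JQ1 2 (adjusted p = 0.073) and without Combination 3 (adjusted p = 0.12). MCOLN1, the lysosomal calcium channel, rose from 50.03, 49.8 and 54.9 to 117, 127 and 112 CPM (log2 fold change 1.21), CTSL, cathepsin L, from 18.9, 17.4 and 19.4 to 49.2, 44.8 and 45.5 CPM (log2 fold change 1.33), and NEU1, a sialidase, from 371, 351 and 373 to 587, 588 and 567 CPM (log2 fold change 0.67).

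Changes of chaperone genes were small. In the heat shock list 10 of 19 members were higher and 2 lower, with a median of 0.14, against 14 higher and 1 lower in CAR minus DMSO with a median of 0.38. Of all genes tested 27.3% were higher and 30.1% lower in CAR minus DMSO. The difference was called negative for 12 members and positive for 0, where 18.2% of all genes were called negative and 20.1% positive. HSPD1, the mitochondrial chaperonin, went from 326, 321 and 316 to 380.04, 371 and 373 CPM with JQ1 present (log2 fold change 0.22), and from 535, 525 and 572 to 859, 901 and 880.5 CPM without it (log2 fold change 0.69). HSPB1, a small heat shock protein, fell from 116, 121 and 130.03 to 90.05, 95.2 and 91.9 CPM (log2 fold change -0.41, SE 0.075, adjusted p = 2.9e-04). HSPA1A was not called, at 45.8, 45.5 and 45.5 and 38.03, 42.3 and 47.8 CPM, and its reads can be shared with the near-identical HSPA1B. Under total count scaling 5 members were higher and 6 lower, HSPA1A among them (adjusted p = 0.046), and without Combination 2 the lower members were 1.

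BET and MYC lists had small median changes. Of 18 BET and P-TEFb genes 8 were higher and 2 lower, with a median of 0.11. BRD2 rose from 897, 914 and 932 to 1064, 1066 and 1052 CPM (log2 fold change 0.21, SE 0.032, adjusted p = 8.0e-06). HEXIM1, an inhibitor of P-TEFb whose RNA rises under BET inhibitors, fell from 603, 601 and 599 to 533, 514 and 512 CPM (log2 fold change -0.21, SE 0.039, adjusted p = 1.0e-04), and with DMSO was at 139, 137 and 153 CPM. The other lower member was LARP7, whose call was lost without JQ1 1, JQ1 2 or Combination 2, where its log2 value was -0.21, -0.21 and -0.15. MYC rose from 125, 125 and 129 to 152, 162 and 157 CPM (log2 fold change 0.32, SE 0.037, adjusted p = 4.1e-07). Of 32 MYC and ribosome biogenesis genes 24 were higher and 2 lower, with a median of 0.26. The largest value, 0.93, was that of LDHA, which is also counted in the glycolysis list. GNL3, NAT10, NOP56 and PES1 rose by 0.57, 0.46, 0.41 and 0.56. Cytosolic ribosomal proteins had 5 of 31 members higher and 2 lower, against 28 higher and 0 lower in CAR minus DMSO. Of all genes tested 27.3% were higher and 30.1% lower in CAR minus DMSO. The difference between the steps was called negative for 24 ribosomal members, where 18.2% of all genes were. Without DMSO 3 the higher ribosomal members were 12. In a fit to the 6 JQ1 and Combination libraries alone 13 were higher and 4 lower. The median of this list, 0.027, changed sign to -0.06 under total count scaling.

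Genes of invasion moved in both directions. VIM, the intermediate filament of mesenchymal cells and a marker of this line, stood at 870.2, 892 and 896 CPM with JQ1 and 528, 567 and 584 CPM with Combination (log2 fold change -0.66, SE 0.039, adjusted p = 7.6e-12), and at 2073, 2056 and 2199 CPM with DMSO and 2144, 2151 and 2152 CPM with CAR. TGFB2, a TGF-beta ligand, fell from 38.2, 35.02 and 34.2 to 16.1, 13.4 and 17.6 CPM and FSTL1, a secreted glycoprotein, from 472, 486 and 465 to 269, 271 and 269.8 CPM. LOX, which crosslinks collagen, rose from 22.5, 22.5 and 20.2 to 36.1, 39.1 and 38.4 CPM (log2 fold change 0.80, SE 0.061, adjusted p = 5.5e-10). SNAI2, a repressor of epithelial genes, rose from 19.7, 19.4 and 17.8 to 27.8, 31.04 and 27.2 CPM (log2 fold change 0.59, SE 0.069, adjusted p = 3.3e-07). Of 29 tested mesenchymal genes 8 were higher and 12 lower. Their median of -0.15 became 0.011 without Combination 3, so it gives no direction for the list. CDH1 (E-cadherin) had at most 4 reads and MMP9 at most 3 reads in any of the 6 libraries and were not tested. MMP1 was not called, at 5.39, 3.65 and 3.61 and 4.84, 4.19 and 3.92 CPM.

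In the adhesion list more members were lower than higher. Of 34 members 16 were lower and 7 higher, and 4 were higher under total count scaling. ITGB1, the common beta chain of integrins, fell from 1526, 1522 and 1465 to 1031, 989 and 997 CPM (log2 fold change -0.58, SE 0.035, adjusted p = 1.2e-11). Its partner ITGA1 fell from 71.1, 70.7 and 73.1 to 40.2, 35.1 and 38.6 CPM, and ITGB5 from 63.9, 63.3 and 62.9 to 35.5, 35.8 and 38.3 CPM. S100A4, a calcium-binding protein tied to motility, fell from 124, 117 and 121 to 66.3, 66.6 and 68.7 CPM (log2 fold change -0.84, SE 0.055, adjusted p = 4.7e-11). LAMB3, a laminin chain, and ITGB3 went up, from 49.1, 47.8 and 45.2 to 80.96, 84.9 and 82.6 and from 39.8, 40.9 and 43.6 to 58.04, 60.05 and 58.2 CPM. Of 25 matrix proteolysis genes 7 were higher and 9 lower, where 26% of all genes tested were higher and 25.9% lower. PLAU, the urokinase, fell from 59.5, 60.9 and 60.1 to 33.3, 35.5 and 39.4 CPM, and TIMP2, an inhibitor of metalloproteinases, from 1614, 1653 and 1677 to 1199.9, 1199 and 1197 CPM. Of 16 epithelial genes 2 were higher and 6 lower, and the keratins KRT7, KRT8 and KRT18 fell together with log2 fold changes of -1.59, -0.65 and -0.54. KRT7 went from 62.2, 63.3 and 68.2 to 20.3, 21.97 and 21.9 CPM. CLDN4, a tight junction protein, rose from 97.7, 106 and 109 to 199, 205 and 194 CPM.

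Several feedback genes of ERK signalling fell. DUSP6, which dephosphorylates ERK, fell from 148, 146 and 145 to 76.1, 74.99 and 75.8 CPM (log2 fold change -0.95, SE 0.039, adjusted p = 1.5e-14), and the ERK pathway inhibitors SPRY2 and SPRED1 had log2 fold changes of -0.76 and -0.82. PHLDA1 fell from 313, 323 and 329.6 to 160.02, 165 and 153 CPM. DUSP4, a related phosphatase, rose from 147, 144 and 142 to 232, 245 and 236 CPM, and FOSL1, an AP-1 subunit, from 31.1, 28.8 and 32.8 to 51.7, 59.2 and 55.4 CPM (log2 fold change 0.85, SE 0.06, adjusted p = 1.8e-10), far below its DMSO level of 306, 332 and 332 CPM. Over the AP-1 and ERK list 10 of 22 members were higher and 8 lower.

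Wnt and BMP lists held more lower than higher members. Of 21 Wnt genes 12 were lower and 1 higher, with a median of -0.45. DKK1, a secreted Wnt inhibitor, fell from 152, 149.98 and 135 to 73.9, 79.2 and 78.3 CPM (log2 fold change -0.92, SE 0.05, adjusted p = 2.6e-12) and was at 156, 159 and 171 CPM with DMSO. TCF7L2, a nuclear partner of beta-catenin, fell from 66.6, 64.96 and 71.3 to 43.3, 45.2 and 41.6 CPM, and the receptors LRP5 and FZD7 had log2 fold changes of -0.54 and -0.60. AXIN1, a scaffold of the complex that degrades beta-catenin, rose from 34.1, 34.2 and 37.6 to 46.8, 45.5 and 45.96 CPM. Of 14 genes around ID proteins and BMP signalling 8 were lower and 1 higher, with a median of -0.53. The higher member, SMAD5, was not called without JQ1 3 (adjusted p = 0.079) or without Combination 2 (adjusted p = 0.057). BMP4 fell from 507, 503 and 502 to 292, 279 and 292 CPM, the receptor BMPR2 from 403, 385 and 363 to 208, 205 and 207 CPM and ID3 from 187, 191 and 196 to 142, 134 and 137 CPM.

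Cell cycle genes changed in both directions. RRM2, a ribonucleotide reductase subunit, went from 20.6, 22.4 and 20.2 to 8.74, 8.66 and 11.9 CPM (log2 fold change -1.11, SE 0.088, adjusted p = 9.8e-10), against 174, 178 and 174 CPM with DMSO. MCM6 and MCM7, helicase subunits of replication, fell with log2 fold changes of -0.62 and -0.53, while MCM2 rose by 0.36. Of 32 replication genes 4 were higher and 12 lower, and the lower members were 7 without Combination 1. The higher members were 2 without Combination 3 and 1 under total count scaling. Of 31 mitotic genes 4 were higher and 7 lower, where 26% of all genes tested were higher and 25.9% lower. The lower mitotic members were 15 without Combination 3 and 12 under total count scaling. CCNB1, cyclin B1, rose from 19.7, 17.01 and 19.2 to 28.1, 24.6 and 29.04 CPM, and CDK1, its kinase, fell from 15.7, 14.03 and 12.5 to 6.85, 8.49 and 9.72 CPM. CDKN1A, the p21 inhibitor, rose from 166, 166 and 169 to 209.6, 221 and 214 CPM (log2 fold change 0.36, SE 0.037, adjusted p = 5.5e-08), and CDKN1B, the p27 inhibitor, fell from 83.9, 84.6 and 83.4 to 52.2, 51.8 and 49.3 CPM (log2 fold change -0.72, SE 0.049, adjusted p = 9.4e-11).

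Apoptosis and repair lists also held more lower than higher members. Of 27 apoptosis regulators 10 were lower and 3 higher, and the higher members were 6 without DMSO 3. CFLAR, which blocks caspase 8, fell from 77.7, 79.8 and 81.3 to 44.1, 41.5 and 43.7 CPM, and BCL2L1, which encodes BCL-XL, from 322, 340.3 and 324 to 209, 232 and 233 CPM. BAX, a pore-forming death effector, rose from 60.5, 58.5 and 58.9 to 73.99, 78.9 and 78.6 CPM. Of 20 homologous recombination genes 8 were lower and 3 higher, and the higher members were 5 without DMSO 3. BARD1, the partner of BRCA1, fell from 15.1, 13.9 and 13.2 to 9.68, 10.1 and 10.3 CPM, and PALB2 rose by 0.57.

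Immune and lipid genes showed mixed changes. In the interferon list 6 of 35 members were higher and 12 lower. PSMB8 and PSMB9, immunoproteasome subunits, fell from 15.5, 16.3 and 14.5 to 7.79, 9.24 and 8.49 and from 9.44, 9.67 and 9.32 to 5.08, 5.46 and 5.74 CPM, unlike the constitutive proteasome subunits above. IRF7 rose from 27.6, 29.4 and 32.7 to 45.8, 49.6 and 47.2 CPM. In the NF-kB list 8 of 23 were higher and 4 lower, where 26% of all genes tested were higher and 25.9% lower. CSF1, a macrophage growth factor, rose from 64.2, 64.02 and 67.7 to 122, 129.5 and 122 CPM. Of 29 sterol and lipid genes 12 were higher and 8 lower, but 5 higher and 13 lower under total count scaling. SREBF1, a master factor of lipid synthesis, fell from 226, 232 and 238 to 149.9, 156 and 154 CPM, and ELOVL6, a fatty acid elongase, rose from 156, 159 and 151 to 236, 238 and 234 CPM. Their median of 0.016 turned to -0.072 under total count scaling and to -0.0012 without JQ1 3. Of 28 nuclear genes of oxidative phosphorylation 4 were higher and 11 lower, and the higher members were 7 without DMSO 3 and 2 under total count scaling. Histone genes (6 of 16 higher, 6 lower), p53 and CDK inhibitor genes (5 of 23 higher, 7 lower) and metallothionein and zinc genes (1 of 8 higher, 4 lower) completed the 36 lists. In the last of these the lower members were 2 without JQ1 1, 1 without JQ1 2 and 2 without Combination 1. The conjugation and other NRF2 lists had 6 of 10 and 5 of 11 members higher, 3 and 2 lower.

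**Figure D4:**
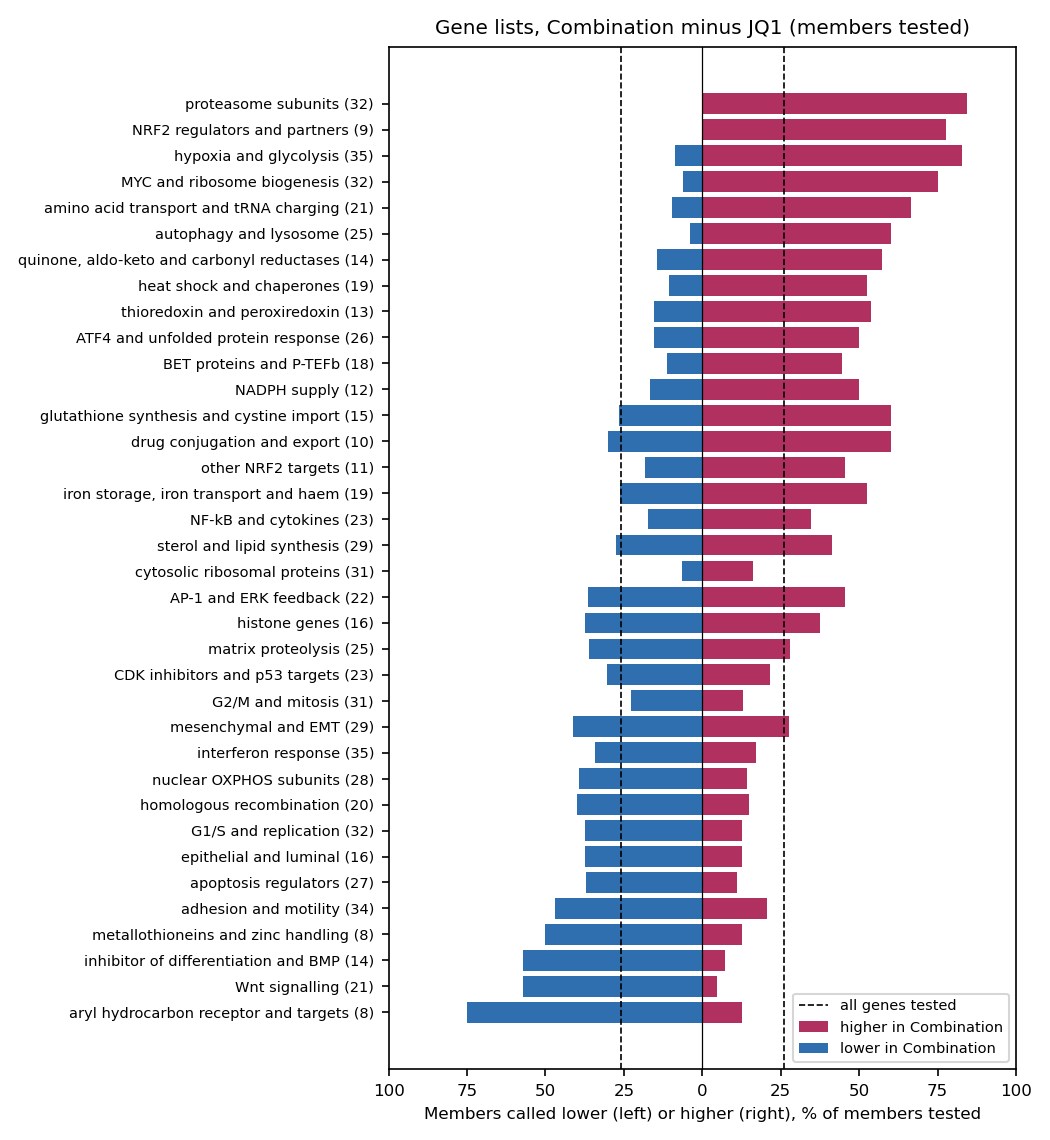
Share of the tested members of each of 36 gene lists called higher (right, red) or lower (left, blue) in Combination minus JQ1, in percent; the number of members tested follows each name, and dashed lines mark the shares over all genes tested, 26% and 25.9%. Proteasome, NRF2 regulator and glycolysis lists lie far to the right of the line, and the aryl hydrocarbon receptor, Wnt and BMP lists to the left.

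The step without JQ1 allowed the change to be compared with and without JQ1, since CAR minus DMSO shares no library with Combination minus JQ1. Of the 3292 genes higher in Combination minus JQ1, 1748 (53.1%) were also among the 3449 higher in CAR minus DMSO (50.7% of those). Of all genes tested 27.3% were higher in CAR minus DMSO, and of those not called in Combination minus JQ1 23.4% were. Of the 3275 lower genes 1875 (57.3%) were also among the 3801 lower ones (49.3% of those), beside 30.1% of all genes tested and 25.4% of those not called. Opposite calls were made for 385 genes that were higher with JQ1 present and lower without it and for 281 genes the other way round. The interaction, which tests the difference between the steps, was called positive for 2536 genes (20.1%) and negative for 2305 (18.2%). It was not called for 1224 of the 1748 genes higher in both steps, nor for 1239 of the 1875 lower in both.

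Within the NRF2 group the difference between steps was not uniform. GCLM, OSGIN1 and SRXN1 rose more with JQ1 present, with interaction log2 values of 1.13 (SE 0.053), 1.40 (SE 0.077) and 1.09 (SE 0.052). HMOX1 rose by 2.88 with JQ1 present and 2.87 without it, and its interaction was not called (SE 0.067, adjusted p = 0.99). FTL, TXNRD1, MGST1 and SLC3A2 were likewise not called, with interaction values of 0.12, -0.085, -0.055 and -0.032. FTH1, NQO1, GCLC and PTGR1 rose less with JQ1 present, at -0.56, -0.36, -0.53 and -0.80. SLC7A11 had an interaction of -0.46 (SE 0.17) that was not called (adjusted p = 0.058).

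Other genes also differed between the steps, some with opposite calls. SLC7A5 rose from 644, 656 and 597 to 851, 849 and 835 CPM with CAR alone and fell with JQ1 present (interaction -1.40, SE 0.054). AHRR fell from 2.12, 1.7005 and 0.929 to 0.989, 0.565 and 0.5203 CPM with CAR alone and rose with JQ1 present (interaction 2.10). SLC48A1, a haem transporter, rose from 13.5, 12.6 and 13.7 to 18.9, 19.5 and 17.4 CPM with CAR alone and fell from 31.5, 29.996 and 30.98 to 21.1, 21.3 and 21.7 CPM with JQ1 present (interaction -1.02). VIM was not called with CAR alone (0.027) and fell with JQ1 present (interaction -0.69, SE 0.054). LDHA rose in both steps, by 0.18 and by 0.93 (interaction 0.75). ASNS rose by 0.31 with CAR alone and by 1.56 with JQ1 present (interaction 1.25).

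**Figure D5:**
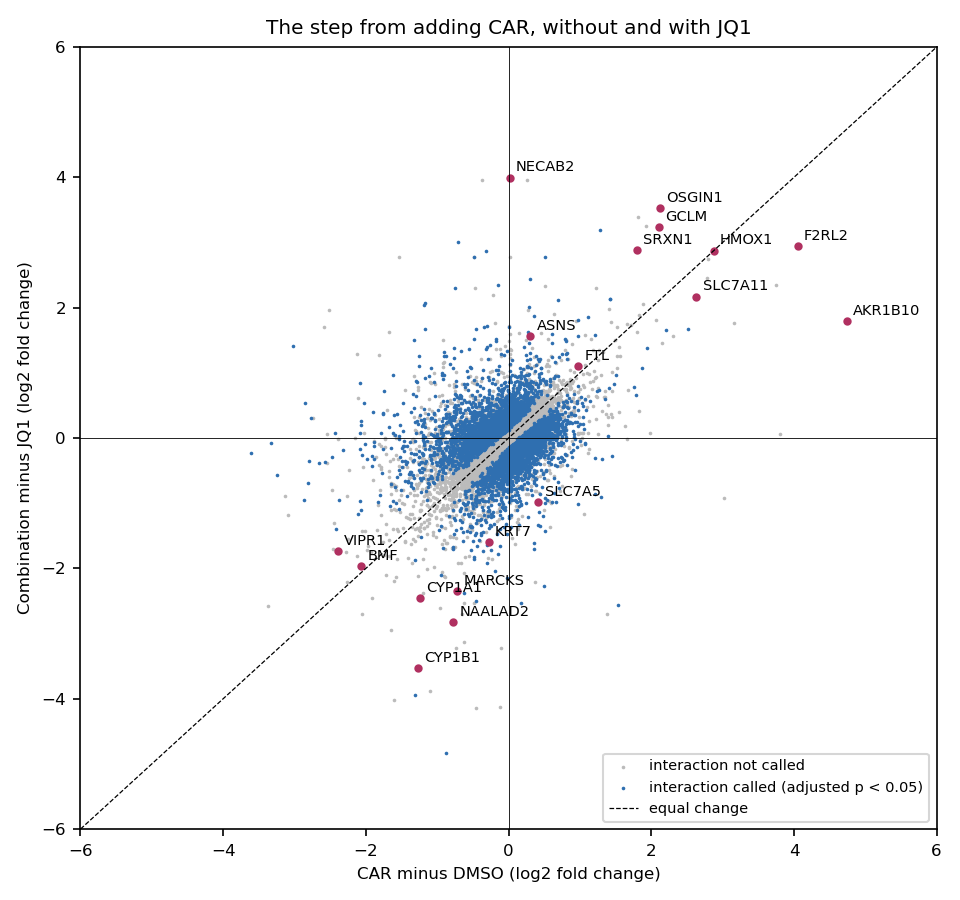
Log2 fold change of each of 12645 tested genes in CAR minus DMSO (x axis) and in Combination minus JQ1 (y axis), blue where the interaction was called at an adjusted p under 0.05, grey where it was not, and red for genes with a name; the dashed line marks equal change. HMOX1 lies on the line, GCLM, OSGIN1 and SRXN1 above it, and NECAB2 at 0.016 on the x axis and 3.99 on the y axis.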

How the data were processed

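RNA of 12 libraries of MDA-MB-231 cells was read by stranded poly(A) sequencing; per the labels' protocols, RNA with an integrity number of at least 7 was used. The authors deposited raw counts for each gene symbol as whole numbers, 1 table per library. Trimmomatic, HISAT2, HTSeq and the build hg38 come from the submitters' processing notes; for versions, annotation and strand setting nothing is given in the sources used here. Reads of overlapping antisense genes therefore cannot be told apart, and near-identical genes may lose or share reads. From these counts, genes passing filterByExpr (minimum count 10, minimum total 15) were fitted in edgeR 4.0.16 (R 4.3.3) with TMM scaling and robust quasi-likelihood, 1 coefficient per group over all 12 libraries (8 residual degrees of freedom, common biological coefficient of variation 0.0408). The TMM factors ran from 0.9205 to 1.075, and the floor of 3 reads lay between 0.147 and 0.177 CPM, counting error only. The 3 contrasts were Combination minus JQ1, CAR minus DMSO and their difference (interaction). Groups and replicate numbers came from titles and treatment labels.

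Genes were named by rule: the 14 largest and 14 smallest called changes with at least 5 CPM and no overlap between groups, the 8 largest CPM differences, up to 5 members of each list by adjusted p with up to 2 that moved against it, the 6 largest and 6 smallest interactions, and 24 genes always. Not all genes the list rule took are printed, and some results are not reported here. The genes, lists and tests were chosen with earlier results of these data known, so no list is independent evidence, and lists were counted, not tested. Alternatives were other scalings, filters, DESeq2 1.42.0, a replicate block, and leaving out libraries. The pipeline was tested on simulated data in which far fewer genes differed than were called here. That test therefore says nothing on how scaling shifts the balance of higher and lower calls. Positions are from GENCODE v29 (GRCh38) and promoters from RefSeq (GRCh38.p14), matched by symbol.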

Additional observations from a re-analysis of the deposited data

Results flagged for a closer look

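The step from adding CAR differed with and without JQ1 for 2536 genes in the positive direction and 2305 in the negative (interaction, edgeR quasi-likelihood test, adjusted p under 0.05). The largest positive differences among genes with at least 5 CPM in some group were NECAB2 (3.98), SYT2 (3.25), SAA1 (2.86), ITGA10 (2.44), CYP2E1 (2.23) and FGF18 (2.20). The largest negative ones were AKR1B10 (-2.95), CYP1B1 (-2.26), NAALAD2 (-2.05), BATF3 (-2.05), TESMIN (-1.95) and THSD1 (-1.84).

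Several of these rest on a step that could barely be read in cells with JQ1. SYT2, a synaptic vesicle protein, went from 12.03, 11.6 and 10.2 CPM with DMSO to 0.8903, 1.49 and 0.989 CPM with CAR, but stood at 0.427, 0.0552 and 0.0582 CPM with JQ1 and 0.177, 0.0581 and 0.293 CPM with Combination. AKR1B10 rose from 0.592, 0.425 and 0.244 to 10.5, 12.3 and 11.4 CPM with CAR alone and stood at 0.107, 0.0552 and 0.0582 CPM with JQ1. TESMIN was at 0.107, 0.221 and 0.349 CPM with JQ1 and 0.118, 0 and 0.117 CPM with Combination, a step called only without JQ1 1 (adjusted p = 0.045) among the libraries left out. The fitted values of these 3 genes depend on the prior count of the fit, since JQ1 or Combination libraries were at or near the floor of 3 reads. ITGA10, an integrin chain, fell from 13.6, 10.5 and 11.1 to 1.34, 2.16 and 1.56 CPM with CAR and was at 1.12, 1.105 and 1.16 and 1.004, 0.581 and 1.05 CPM in the groups with JQ1.

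SAA1, an acute phase protein, fell from 6.26, 4.57 and 5.96 to 2.57, 2.83 and 2.03 CPM with CAR alone and rose from 0.853, 0.276 and 0.699 to 1.71, 1.92 and 2.28 CPM with JQ1 present. FGF18, a growth factor, was at 6.51, 5.97 and 6.87 CPM with JQ1 and 5.02, 4.999 and 4.98 CPM with Combination, and its lower call in that step was lost without JQ1 3 (adjusted p = 0.065). CYP2E1, a cytochrome that is also a liver marker, rose from 4.16, 3.92 and 3.67 to 12.8, 9.65 and 7.08 CPM. Combination 1, the library with the high liver marker sum, was its highest, and without that library the log2 fold change went from 1.33 to 1.09 and stayed called. BATF3, an AP-1 family factor, fell from 2.72, 2.93 and 2.56 to 0.5905, 0.814 and 1.11 CPM and rose from 7.74, 7.07 and 8.31 to 10.8, 9.76 and 9.001 CPM with CAR alone. With 3 libraries per group no test for outlying samples was applied.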

How the results depend on the processing

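All 8 counts of called genes stayed within 1.5 times their values under every alternative run. Total count scaling gave 2229 higher and 4550 lower genes in Combination minus JQ1, 131 and 384 of them at least 2-fold, and interaction counts of 2349 and 2601. Leaving out 1 library at a time, from JQ1, Combination or DMSO 3, gave 2906 to 3770 higher and 2894 to 3686 lower genes. The values 3770 and 3686 came without DMSO 3, a library outside this comparison that enters the shared estimate of spread. Without a JQ1 or Combination library the counts were 2906 to 3015 and 2894 to 3049. At least 2-fold changes numbered 152 to 172 and 288 to 331. With each of the 12 libraries left out in turn, interactions numbered 2256 to 3027 positive and 1982 to 2837 negative, highest without DMSO 3. Deviations from the group mean in same-numbered JQ1 and Combination libraries correlated at 0.0744, 0.0399 and 0.0289 over 6155 genes. Differently numbered libraries correlated at -0.153 to 0.1. Deviations within a group of 3 are tied to each other, so these values cannot decide whether the numbers pair the samples. With the replicate number as a block 3271 genes were higher and 3247 lower, with interaction counts of 2502 and 2283.

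Signs turned for MMP1, NFE2L2, SYT2 and list medians near 0, and the cause was not tested. MMP1 went to -0.0595 under total count scaling, -0.067 without JQ1 2 and -0.062 without Combination 1, and ranged from -0.069 to 0.25 over single libraries left out. NFE2L2 went to -0.065 under total count scaling. SYT2, at the floor in most of these libraries, went to 1.525 without JQ1 1 and 0.34 without Combination 2, and as low as -0.63 without Combination 3. The list medians ranged from -0.168 to 0.011 for mesenchymal genes (the latter without Combination 3), and under total count scaling to -0.011 for p53 and CDK inhibitor genes (from 0.076), -0.072 for sterol genes and -0.0605 for ribosomal proteins; over single libraries left out the sterol median ranged from -0.0012 (JQ1 3) to 0.036 (JQ1 1). C3 turned from 1.76 to -0.195 where Combination 1, with 14.8 CPM against 1.395 and 1.64 CPM in the other Combination libraries, was left out, and reached 2.23 without Combination 2. Total count scaling also gave 6 lower autophagy, 4 lower thioredoxin, 4 lower BET, 5 lower MYC, 5 lower ribosomal protein, 1 higher epithelial and 0 higher BMP genes. Depth limits genes near 3 reads per library, for which small changes were not detectable.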
